A study of Mus musculus with 12 samples.

Results

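Genes of the major histocompatibility complex class II (MHC-II) system were followed in primary mouse oligodendrocyte precursor cells (OPCs). The 10 genes were taken by symbol from the 55536 genes in the deposited quantification. They are the transcriptional regulators Ciita, Rfx5 and Rfxap, the class II chains H2-Aa, H2-Ab1 and H2-Eb1, the invariant chain gene Cd74, and H2-DMa, H2-DMb1 and H2-DMb2, which encode the chains of the peptide editor H2-DM.

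The series held 12 bulk RNA-seq libraries in 4 groups of 3, each replicate from other litters. Control OPCs (Ctr) received neither agent. EZH2i cells received EPZ011989, an inhibitor of the H3K27 methyltransferase EZH2, at 1.5 µM for 4 days with renewal every 48 h. IFN-γ cells received 100 ng/ml interferon-γ for 6 h, and the last group received both, with fresh inhibitor added beside the cytokine. All cells came from pooled brains of P4 to P6 pups of the Sox10:Cre-RCE:LoxP(EGFP) line, which crosses C57BL/6j with a C57BL/6xCD1 mixed background and marks Sox10 lineage cells with GFP. They were selected as Sox10GFP+ by FACS or by CD140a beads, and which selection was used for which library is not given. The labels also name EAE as the mouse model of every library, and no immunisation is described for these pup cultures.

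MHC-II molecules present peptides from endosomes to CD4+ T cells and are best known from dendritic cells, B cells and macrophages. In other cells IFN-γ acts through the kinases JAK1 and JAK2 to switch on Ciita, whose product does not bind DNA itself. The CIITA protein docks on a promoter module bound by the RFX complex (RFX5, RFXAP and RFXANK), CREB and NF-Y. The invariant chain then occupies the groove of the new α/β dimer, and H2-DM helps exchange its last fragment for antigenic peptide.

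The class II and H2-DM genes lie in 1 stretch of chromosome 17 (GRCm38, GENCODE M21). From the start of that stretch they are H2-DMa (34119541 to 34139101, plus strand), H2-DMb2 (34143307 to 34151555, plus), H2-DMb1 (34153072 to 34160230, plus), H2-Ab1 (34257689 to 34269419, plus), H2-Aa (34282744 to 34287823, minus) and H2-Eb1 (34305867 to 34316674, plus). Ciita lies on chromosome 16 (10480059 to 10528418, plus). Rfxap (54803115 to 54807791, minus) and Rfx5 (94954075 to 94961561, plus) are both on chromosome 3.

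The promoter stretches of H2-Aa and H2-Eb1 are shown because these are class II chains that rose with IFN-γ, and those of H2-DMb1 and H2-DMb2 because these near copies differed in their reads. Capitals mark 3 short words: ATTGG, the reverse of the CCAAT core that NF-Y binds, TGACG, a core of the CREB site, and GATG where it stands within 40 bases before ATTGG on the same strand. Sequences are from RefSeq (GRCm38.p6), 5′ to 3′ along the gene, and cover 120 bases before the start of H2-Aa (chr17:34287824-34287943, minus strand) and H2-Eb1 (chr17:34305747-34305866, plus strand).

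H2-Aa: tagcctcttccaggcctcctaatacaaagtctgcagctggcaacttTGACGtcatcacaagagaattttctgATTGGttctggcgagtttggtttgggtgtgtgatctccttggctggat

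H2-Eb1: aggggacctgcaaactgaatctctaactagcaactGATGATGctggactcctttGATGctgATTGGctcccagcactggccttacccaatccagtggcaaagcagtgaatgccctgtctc

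For the H2-DMb genes only the 29 bases from the nearest GATG to ATTGG are printed (H2-DMb1 at chr17:34153106-34153134 and H2-DMb2 at chr17:34145135-34145163, both plus strand). A further GATG overlaps its first base, from -88 in H2-DMb1 and -117 in H2-DMb2, and is not printed. The H2-DMb1 stretch lies before the RefSeq start but inside the first exon of the protein-coding GENCODE transcript of H2-DMb1.

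H2-DMb1: GATGctaggctgattcactcagtgATTGG

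H2-DMb2: GATGctaggctaagtcacttagtgATTGG

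Counted from 1 at the first base of the stretch, H2-DMb1 and H2-DMb2 differ by G12A, T14G and C20T, with the H2-DMb1 base first. ATTGG was found on the strand of the gene at position -48 from the start in H2-Aa, -59 in H2-Eb1, -61 in H2-DMb1 and -90 in H2-DMb2. Within the 250 bases before the start, H2-DMa held ATTGG at -198 in 1 of its 2 listed promoters, and Rfx5 held it on the opposite strand at -54 and -113. Over all 32851 listed promoters of that length, 33.8% held ATTGG on either strand, so a match alone is common. TGACG was in 17.8% of them and among the members in H2-Aa, at -74. GATG before ATTGG was in 5.21% of promoters and in H2-Eb1, H2-DMb1 and H2-DMb2. The word TTCNNNGAA (7.02% of promoters) and the interferon-stimulated response element (ISRE, 2.98%) were searched on both strands, and only the first had a match, in H2-DMb2 at -218. Promoters of 6 members were searched, and those of Ciita, Rfxap, H2-Ab1 and Cd74 were not.

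Total estimated counts ran from 17403896 to 66546017 per library. The level given below is CPM, the counts scaled to a common library size with TMM factors, and a count of 3 corresponded to 0.0455 to 0.169 CPM, depending on the library. These bulk data cannot tell fewer expressing cells from less RNA per cell. OPC markers were abundant (Pdgfra at 480 to 1917 CPM), with a summed level of 8111 to 8375 CPM in Ctr, 6700 to 7100 with EZH2i, 5292 to 7130 with IFN-γ and 4304 to 5199 with both. Of 13 microglia and macrophage markers, 6 had at most 3 counts in every library, C1qa was at 0 in all 12, and Aif1 and Ptprc reached at most 2 and 4 counts. The summed level of those 13 was 0.790 to 1.09 CPM in Ctr, 1.07 to 1.32 with EZH2i, 1.36 to 1.78 with IFN-γ and 1.45 to 1.71 with both, most of it from P2ry12 (0.390 to 1.34 CPM) and Csf1r (0.0855 to 0.456 CPM). Of the B cell markers Ms4a1 was at 0 and Cd79a at 0.237 to 1.41 CPM, and of the T cell markers Cd3d was at 0 and Cd4 had at most 11 counts. Of the dendritic cell markers Itgax had at most 2 counts and Flt3 at most 80, whereas Zbtb46 was at 12.8 to 20.3 CPM and made up most of that list's sum of 13.5 to 20.7 CPM. The mature oligodendrocyte and neuron lists also moved between groups. The mature oligodendrocyte list was lower with EZH2i without overlap, at 808 to 1287 CPM against 1470 to 1838 in Ctr and at 781 to 1272 CPM with both agents against 1393 to 1611 with IFN-γ. The neuron list was at 33.3 to 46.8 CPM in Ctr and 681 to 1271 with IFN-γ, mostly Tubb3. The astrocyte list overlapped between all groups, at 165 to 403 CPM in Ctr, 311 to 653 with EZH2i, 166 to 545 with IFN-γ and 320 to 848 with both agents. The part of these in the results below was not tested.

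Ciita, the regulator of the class II system, rose with IFN-γ in every library. It stood at 0.886, 1.98 and 0.780 CPM in the Ctr libraries 1 to 3, which were 25, 35 and 46 counts. With IFN-γ it reached 171, 171 and 166 CPM. The lowest treated library was far above the highest control, and the treated libraries lay close together. By the quasi-likelihood test of edgeR the log2 fold change was 7.24 ± 0.32 (SE, adjusted p = 1.46e-08). In EZH2-inhibited cells Ciita went from 1.22, 1.07 and 1.75 CPM to 193, 234 and 216 CPM with IFN-γ, a log2 fold change of 7.28 ± 0.31 (adjusted p = 1.10e-08).

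Ciita is transcribed from several starts, and its 8 annotated transcripts fall into 3 start groups. The first, at 10480059 to 10480164 on chromosome 16, took 2.54%, 3.91% and 2.61% of Ciita reads in the IFN-γ libraries. The middle group, at 10488178 to 10488279, took 69.8%, 65.6% and 61.8%, and the third, at 10489746 to 10489783, took 27.7%, 30.5% and 35.6%. Per length the order of these groups turned, with 47.7%, 45.9% and 41.1% of the Ciita TPM in the middle group and 49.0%, 49.0% and 55.7% in the third. With both agents the third group took 27.2%, 29.1% and 37.0% of reads, which overlaps the IFN-γ libraries. Its share of TPM was then 46.5%, 45.4% and 55.6%, against 47.6%, 50.8% and 41.4% in the middle group, so the order turned in library 3 only. In Ctr the third group held 0, 1 and 2 estimated reads. These shares come from the estimated split of reads among transcripts that differ in their other ends as well, including a later annotated end in the middle group, so they are not a measurement of start use.

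The RFX subunits were present in every library and did not pass the test. Rfx5, the subunit that contacts DNA, was at 42.6, 38.7 and 26.1 CPM in Ctr and 52.3, 45.9 and 37.7 CPM with IFN-γ. The ranges overlapped, and the log2 fold change was 0.34 ± 0.21 (adjusted p = 0.453). Rfxap, which bridges the complex, was at 14.7 ± 1.75 CPM (SD, n = 3) in Ctr, 15.5 ± 1.05 with EZH2i, 15.3 ± 1.30 with IFN-γ and 14.5 ± 0.827 with both. Its log2 fold change with IFN-γ was 0.06 ± 0.14 (adjusted p = 0.894). On the per-length scale Rfx5 was at 6.59 to 8.58 TPM in Ctr and 8.99 to 14.0 TPM with IFN-γ, which do not overlap. For this gene the separation of the groups thus depended on the scale. How many of all genes were apart in TPM was not computed, and the cause was not tested.

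Downstream, 7 of the 9 members that passed the low-count filter rose with IFN-γ, and none fell. The share of all 18995 tested genes called higher in that comparison was 6.65%. The risers were Ciita, Cd74, H2-Aa, H2-Ab1, H2-Eb1, H2-DMa and H2-DMb1, and in each of them all 3 IFN-γ libraries lay above all 3 Ctr libraries. The same 7 were called higher when IFN-γ was added to EZH2-inhibited cells, where 5.9% of all genes were. The median log2 fold change of the 9 tested members was 5.73 without and 6.22 with the inhibitor, against 0.001 and 0.002 over all tested genes. H2-DMb2 did not pass the filter and was not tested.

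**Figure D1:**
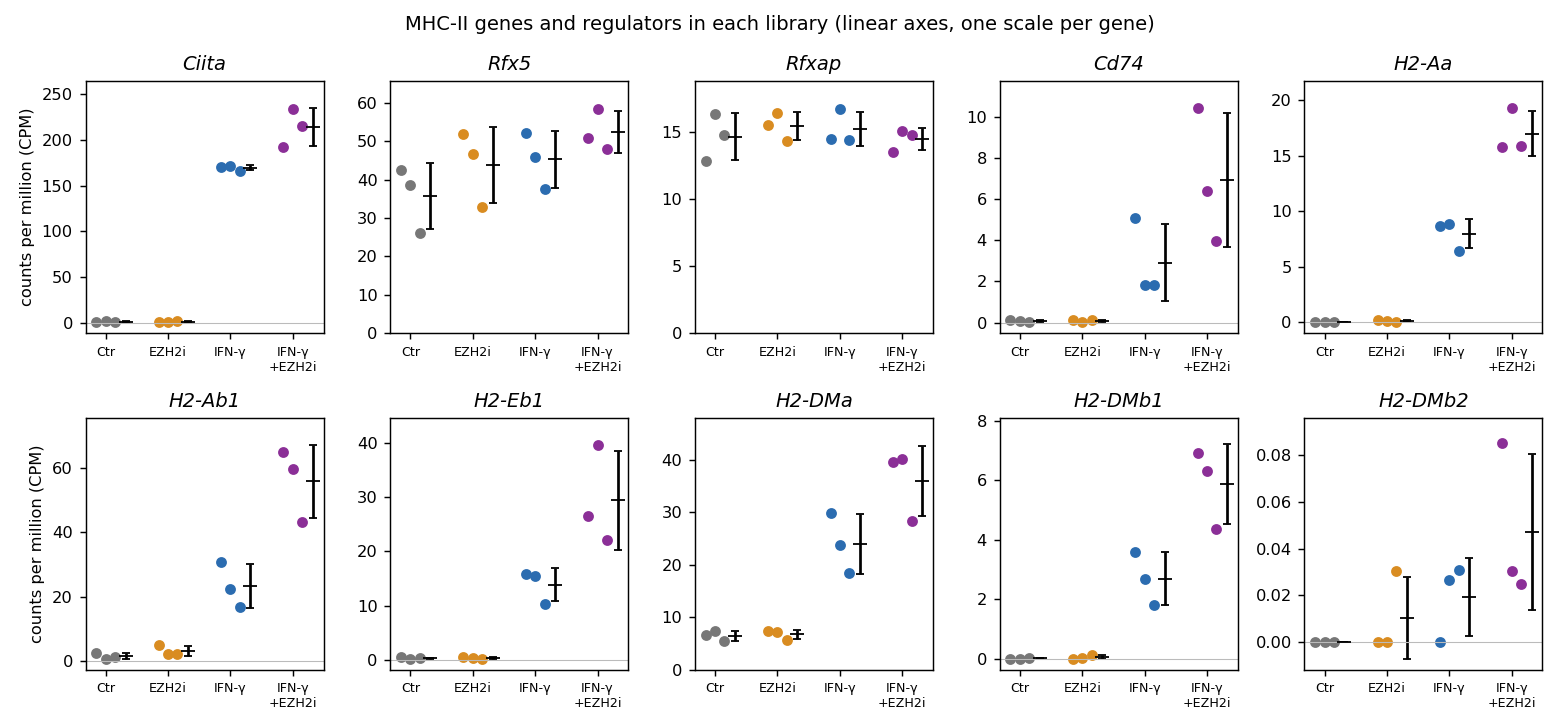
Level of each gene in CPM (linear axis, a scale for each gene) in the 12 libraries, by group; points are libraries 1 to 3 from left to right, and the black mark and bar are the mean and SD. The IFN-γ points of Ciita run from 166 to 171 CPM and those of the double treatment from 193 to 234 CPM, the Rfx5 libraries run from 26.1 to 42.6 CPM in Ctr and from 47.9 to 58.4 CPM with both, and H2-DMb2 stays below 0.1 CPM.

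H2-Ab1, the β chain of I-A, had the highest level per length of the 3 class II chains before IFN-γ, at 1.25, 0.477 and 1.02 TPM in Ctr against at most 0.284 TPM for H2-Eb1 and 0.0440 TPM for H2-Aa. On the CPM scale it was at 2.38, 0.678 and 1.29 CPM in Ctr (67, 12 and 76 counts) and at 30.6, 22.3 and 16.9 CPM with IFN-γ. The groups were far apart, with a log2 fold change of 3.97 ± 0.44 (adjusted p = 7.69e-05). In EZH2-inhibited cells it went from 4.93, 2.25 and 2.23 CPM to 64.8, 59.7 and 43.1 CPM (log2 fold change 4.18 ± 0.43, adjusted p = 3.83e-05).

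H2-Aa, the α chain that pairs with H2-Ab1, had 1, 0 and 3 counts in the Ctr libraries. With IFN-γ it had 259, 333 and 418 counts, or 8.68, 8.87 and 6.45 CPM. Scaled to library size, the pooled counts were 200-fold higher (exact 95% counting interval 78.0 to 736), and the adjusted p was 2.38e-07. In EZH2-inhibited cells 5, 3 and 3 counts became 369, 636 and 638, a 202-fold ratio (112 to 405). The intervals on pooled counts cover counting error only, and the reads carry no molecular identifiers.

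H2-Eb1, the β chain of I-E, had 11, 2 and 14 counts in Ctr and 472, 578 and 667 with IFN-γ, that is 0.390, 0.113 and 0.237 CPM against 15.8, 15.4 and 10.3 CPM. The log2 fold change was 5.73 ± 0.40 (adjusted p = 1.07e-06). In EZH2-inhibited cells it went from 0.393, 0.274 and 0.182 CPM to 26.5, 39.7 and 22.1 CPM, with a log2 fold change of 6.77 ± 0.40 (adjusted p = 2.18e-07). Most H2-Eb1 reads were assigned to a transcript annotated as a target of nonsense-mediated decay: 59.2% ± 2.99 (SD, n = 3) with IFN-γ and 63.6% ± 2.09 with both agents. Protein-coding transcripts took 21.6% ± 5.13 and 18.9% ± 2.14 of them. For H2-Aa the protein-coding share was 71.6% ± 5.81 with IFN-γ and for H2-Ab1 84.4% ± 5.74, and most of the remainder was assigned to transcripts with a retained intron. All these shares are estimated splits of reads among overlapping transcripts of a gene, so they are not a measurement of each transcript.

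The I-E dimer needs an α chain that mice of the C57BL/6 haplotype do not make, since their gene is the pseudogene H2-Ea-ps. That gene had 0 counts in 11 of the 12 libraries and 2 in IFN-γ library 3. H2-Eb2, a further β chain gene, had at most 3 counts. The genes for H2-DO, an inhibitor of H2-DM made in B cells, were also near 0: H2-Oa and H2-Ob had at most 1 count in any library. These 4 class II genes thus stayed at or below the floor of 3 counts in the libraries in which H2-Aa, H2-Ab1 and H2-Eb1 rose.

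Cd74, the invariant chain gene, had 3, 1 and 1 counts in Ctr and 152, 69 and 118 with IFN-γ, or 5.09, 1.84 and 1.82 CPM. The pooled ratio was 53.8-fold (22.8 to 167) and the adjusted p 2.96e-04. In EZH2-inhibited cells 3, 1 and 8 counts became 244, 210 and 160 (69.1-fold, 39.3 to 134). The 2 main protein-coding transcripts differ in length, and the longer took 33.2% ± 3.51 (SD, n = 3) of their reads with IFN-γ and 39.7% ± 5.09 with both agents, ranges that overlap.

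The level of Cd74 per length was low beside that of the chains it escorts. In the IFN-γ libraries Cd74 was at 3.49, 1.45 and 1.25 TPM, against 27.1, 20.2 and 13.4 TPM for H2-Ab1, 5.98, 7.09 and 4.05 TPM for H2-Aa and 13.1, 15.8 and 8.83 TPM for H2-Eb1. The ratio of Cd74 to H2-Ab1 within a library was 0.129, 0.0718 and 0.0936 with IFN-γ and 0.132, 0.104 and 0.0902 with both. The ratio of H2-Ab1 to H2-Aa, whose products pair in equal numbers, was 4.53, 2.86 and 3.30 with IFN-γ and 4.61, 3.48 and 3.20 with both. In each of the 6 libraries with IFN-γ the order per length was H2-Ab1 first, then H2-Eb1, H2-Aa and Cd74. These levels sum all annotated transcripts of a gene. In the IFN-γ libraries the protein-coding H2-Eb1 transcripts were at 1.26, 0.730 and 0.702 TPM and at 1.17, 1.05 and 0.692 TPM. The longer protein-coding H2-Aa transcript was at 4.07, 6.32 and 3.35 TPM, so by these estimated splits H2-Aa stood above H2-Eb1.

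The H2-DM chain genes differed in level before IFN-γ, with 4.49 to 5.30 TPM for H2-DMa and at most 0.0281 TPM for H2-DMb1 in Ctr. H2-DMa, the α chain, was at 6.67, 7.28 and 5.48 CPM in Ctr and rose to 29.9, 23.8 and 18.5 CPM with IFN-γ (log2 fold change 1.90 ± 0.21, adjusted p = 9.39e-05). H2-DMb1, the β chain, had 0, 0 and 1 counts in Ctr and 107, 100 and 117 with IFN-γ (3.59, 2.66 and 1.81 CPM). Its pooled ratio was 257-fold with a wide interval (45.8 to 10182), because it rests on a single control read (adjusted p = 3.55e-05). In EZH2-inhibited cells H2-DMa went from 7.40, 7.12 and 5.71 CPM to 39.5, 40.2 and 28.3 CPM (log2 fold change 2.42 ± 0.22, adjusted p = 1.09e-05). H2-DMb1 went there from 0, 1 and 8 counts to 162, 207 and 175 (81.6-fold, 42.7 to 179). Per length, H2-DMa stayed 10.5, 10.3 and 10.6 times H2-DMb1 in the IFN-γ libraries.

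H2-DMb2, the other gene for the β chain, had 0, 0 and 0 counts in Ctr, 0, 0 and 2 with EZH2i, 0, 1 and 2 with IFN-γ, and 2, 1 and 1 with both. All of these are at or below the floor of 3 counts, so no fold is given and any expression was not detectable at this depth. Main transcripts of H2-DMb1 and H2-DMb2 are 90.8% identical over 1244 aligned bases, with 115 mismatches, and the 250 bases before their starts are 83.3% identical over 209 aligned bases. Reads of near-identical stretches are divided between such copies by the quantifier, so the assignment to H2-DMb1 carries that uncertainty.

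**Figure D2:**
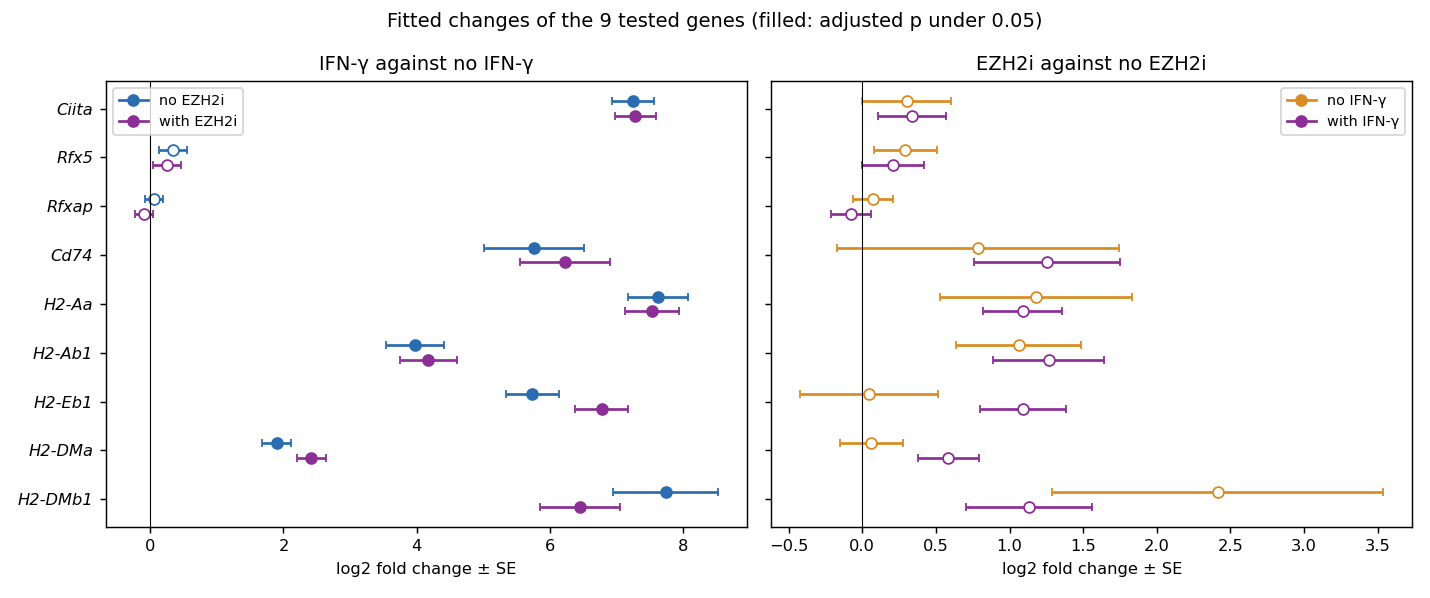
Fitted log2 fold changes ± SE of the 9 tested genes for IFN-γ (left, with and without EZH2i) and for EZH2i (right, with and without IFN-γ); filled points have an adjusted p under 0.05 in the fit without a replicate term. The 7 risers are filled on the left in both settings, from 1.90 for H2-DMa to 7.73 for H2-DMb1, and none is filled on the right.

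EZH2 inhibition without IFN-γ changed no member past the threshold. The call share over all genes was 0.405%, and among the members 0 of 9 were called, and 0 by DESeq2. Of all 18995 tested genes 1338 had an unadjusted p under 0.05, among them 1 member. That gene was H2-Ab1, at 4.93, 2.25 and 2.23 CPM with EZH2i against 2.38, 0.678 and 1.29 CPM in Ctr (log2 fold change 1.06 ± 0.42, unadjusted p = 0.0282, adjusted p = 0.578). The highest Ctr library was above 2 of the 3 EZH2i libraries. Ciita had a log2 difference of 0.30 ± 0.30 (adjusted p = 0.970), H2-DMa of 0.06 ± 0.21 (adjusted p = 0.990) and H2-Eb1 of 0.05 ± 0.47 (adjusted p = 0.999). In CPM, for no member were all 3 EZH2i libraries above all 3 Ctr libraries, which was so for 7.37% of all tested genes. In TPM this held for H2-Ab1 (4.41, 1.97 and 1.97 against 1.25, 0.477 and 1.02) and Rfx5 (14.1, 14.0 and 8.83 against 6.59, 8.58 and 7.16). The share of all genes apart in TPM was not computed, so this is given as a description only. The blocked fit called H2-Ab1 (log2 fold change 1.00 ± 0.24, adjusted p = 0.0405), and it called 657 of all 18995 tested genes higher. Same-numbered libraries of EZH2i and Ctr correlated at 0.441, 0.0467 and 0.495. Number 2 was low, and they were not taken as paired. For Cd74, H2-Aa and H2-DMb1 both groups lay near the floor, with at most 8 counts in any library, and their fitted log2 values (0.78 ± 0.96, 1.18 ± 0.65 and 2.41 ± 1.12) rest on those few reads.

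In IFN-γ treated cells the class II chains were about 2-fold higher with the inhibitor than without it. H2-Aa was at 15.8, 19.3 and 15.9 CPM with both agents, above the 8.68, 8.87 and 6.45 CPM of the IFN-γ libraries. H2-Ab1 was at 64.8, 59.7 and 43.1 CPM against 30.6, 22.3 and 16.9 CPM, and H2-Eb1 at 26.5, 39.7 and 22.1 CPM against 15.8, 15.4 and 10.3 CPM. None of these groups overlapped. Without a replicate term the log2 fold changes were 1.09 ± 0.27, 1.27 ± 0.38 and 1.09 ± 0.29 in that order of genes, and the adjusted p-values were 0.180, 0.320 and 0.233.

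The remaining targets were higher on average too, with more overlap. Cd74 was at 10.4, 6.38 and 3.98 CPM with both agents against 5.09, 1.84 and 1.82 CPM (log2 fold change 1.25 ± 0.50, adjusted p = 0.647). IFN-γ library 1 lay above library 3 of the double treatment. H2-DMa was at 39.5, 40.2 and 28.3 CPM against 29.9, 23.8 and 18.5 CPM (0.58 ± 0.20, adjusted p = 0.504), also with overlap. H2-DMb1 was at 6.92, 6.29 and 4.35 CPM against 3.59, 2.66 and 1.81 CPM, without overlap (1.13 ± 0.43, adjusted p = 0.594).

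Altogether 0 of 9 members passed the threshold in this comparison, where 0.347% of all genes were called higher. At an unadjusted p under 0.05 there were 6 members, against 1220 of all 18995 tested genes. Of the 9 tested, 5 had all 3 double-treated libraries above all 3 IFN-γ libraries, namely Ciita, H2-Aa, H2-Ab1, H2-Eb1 and H2-DMb1, against 6.08% of all tested genes. The replicate numbers paired these libraries across all genes. With the replicate number as a block in a fit of all 12 libraries, 5 of 9 members were called higher, against 3.11% of all genes by the same fit. They were H2-Ab1, H2-Eb1, H2-Aa, H2-DMa and Cd74. That fit also held the Ctr libraries, which were not taken as paired with the EZH2i or IFN-γ libraries. A paired fit of these groups alone was not run. In that fit H2-Ab1 had a log2 fold change of 1.30 ± 0.18 (adjusted p = 0.00166), H2-Eb1 of 1.08 ± 0.17 (adjusted p = 0.00316) and H2-Aa of 1.10 ± 0.17 (adjusted p = 0.00394). H2-DMa had 0.59 ± 0.10 (adjusted p = 0.00710) and Cd74 1.31 ± 0.25 (adjusted p = 0.0130). H2-DMb1 (1.15 ± 0.31, adjusted p = 0.0664), Ciita, Rfx5 and Rfxap did not pass. DESeq2, without a block, called H2-Aa (adjusted p = 4.06e-04) and H2-Eb1 (0.0269). By DESeq2, 240 of 23038 genes were called higher here. The EZH2i calls in the class II genes therefore depended on the replicate term and on the tool.

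Number by number, double-treated over IFN-γ, H2-Ab1 was 2.12-, 2.67- and 2.56-fold higher, H2-Aa 1.82-, 2.18- and 2.46-fold, H2-Eb1 1.68-, 2.58- and 2.15-fold, and Cd74 2.05-, 3.47- and 2.18-fold. H2-DMb1 was 1.93-, 2.36- and 2.41-fold higher and H2-DMa 1.32-, 1.69- and 1.53-fold. The folds of Ciita were smaller, at 1.13, 1.37 and 1.30, and its fitted log2 fold change was 0.34 ± 0.23 without the block (adjusted p = 0.980) and 0.33 ± 0.16 with it (0.316). Rfxap was at 0.931, 0.902 and 1.02 times its IFN-γ level.

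The levels per length give the chains relative to their regulator within a library. H2-Aa was at 0.191, 0.194 and 0.129 times the TPM of Ciita with IFN-γ and at 0.331, 0.332 and 0.262 times with both, without overlap. H2-Eb1 went from 0.418, 0.433 and 0.280 to 0.631, 0.867 and 0.470, also without overlap. H2-Ab1 was at 0.866, 0.555 and 0.424 and then 1.53, 1.16 and 0.837, where the groups overlap. The ratio of H2-DMa to H2-DMb1 was lower with both agents, at 7.09, 7.81 and 7.77 against 10.5, 10.3 and 10.6. Of 10 such ratios compared, 2 were higher and 1 lower without overlap. Exact two-sided permutation tests of 3 against 3 libraries cannot go below p = 0.1, which those 3 ratios reached (Benjamini-Hochberg adjusted p = 0.333 over the 10), so no ratio passed. Within the numbered pairs all 6 ratios to Ciita were higher with both agents in each of the 3 pairs, including those of Cd74, H2-DMa and H2-DMb1. An exact two-sided test on 3 pairs, added after the data were seen, cannot go below p = 0.25, which each of the 6 reached.

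**Figure D3:**
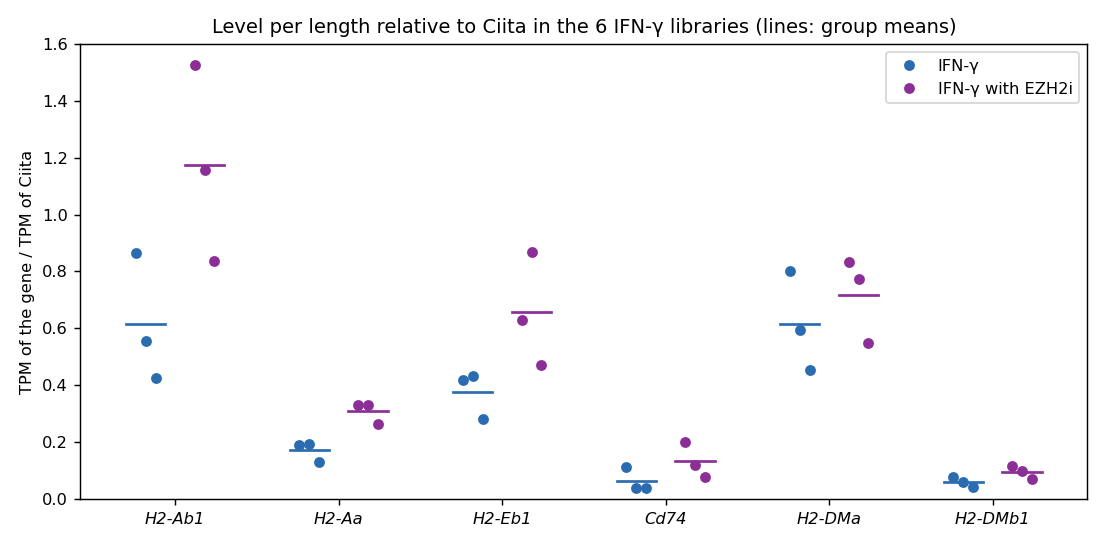
TPM of 6 class II system genes divided by the TPM of Ciita in the same library, for the 3 IFN-γ libraries and the 3 libraries with both agents; points are libraries 1 to 3 from left to right and lines are group means. The mean for H2-Ab1 is 0.615 with IFN-γ and 1.17 with both, and for H2-DMa 0.616 and 0.718, with overlapping libraries.

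Whether the inhibitor altered the IFN-γ response itself was asked with the interaction of the treatments on the log2 scale. No member passed in edgeR or DESeq2, and none had an unadjusted p under 0.05. Over all genes 0% were called by either tool, with 127 at an unadjusted p under 0.05 in edgeR. The interaction kept its sign in all 12 fits that lacked 1 library for H2-Eb1 (1.04 ± 0.55, adjusted p = 1.00), H2-DMa (0.52 ± 0.29, adjusted p = 1.00) and Rfxap (-0.15 ± 0.19, adjusted p = 1.00). Those fits share most of their libraries, so a kept sign is not a separate test. On the linear scale the double-treated mean exceeded the sum expected from the single treatments by 44.6 CPM for Ciita, 30.9 CPM for H2-Ab1, 15.6 CPM for H2-Eb1, 11.7 CPM for H2-DMa, 8.91 CPM for H2-Aa, 3.99 CPM for Cd74 and 3.13 CPM for H2-DMb1. For Rfx5 the same quantity was -0.924 CPM and for Rfxap -1.55 CPM. These sums are given as a description with no test.

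Among 27 other genes of the pathway, 22 passed the filter, and 9 rose and 0 fell with IFN-γ, where 6.65% of all genes were called higher. In EZH2-inhibited cells 9 rose and 0 fell, where 5.9% of all genes were called higher. Of the 7 genes that lead to Ciita, 5 rose. Irf1, an activator of the Ciita promoter, was at 12.3, 11.5 and 12.1 CPM in Ctr and 819, 1035 and 999 CPM with IFN-γ (log2 fold change 6.31 ± 0.16, adjusted p = 2.98e-10). Jak1 (1.10 ± 0.11), Jak2 (1.28 ± 0.17), Irf2 (1.26 ± 0.25) and Usf1 (0.85 ± 0.17) also rose, although with counts scaled from TPM Irf2 did not pass (adjusted p = 0.0623, and 0.0709 in EZH2-inhibited cells), whereas the receptor genes Ifngr1 (-0.17 ± 0.17) and Ifngr2 (-0.42 ± 0.23) did not pass.

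The feedback inhibitors of JAK signalling Socs1 (6.77 ± 0.29) and Socs3 (2.26 ± 0.24) both rose. Of the 5 partners that sit beside CIITA on class II promoters only Nfyb, an NF-Y subunit, rose (0.80 ± 0.13, adjusted p = 0.00148, but 0.0613 with counts scaled from TPM). Rfxank, the remaining RFX subunit, was at 41.9, 61.0 and 33.1 CPM in Ctr and 37.5, 42.4 and 30.9 CPM with IFN-γ (-0.29 ± 0.23, adjusted p = 0.576). Creb1, Nfya and Nfyc did not pass.

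Of the endosomal proteases and processing enzymes, Sppl2a, which clears the last fragment of the invariant chain from the membrane, rose from 69.1 ± 5.57 CPM (SD, n = 3) to 97.2 ± 2.83 CPM (log2 fold change 0.49 ± 0.11, adjusted p = 0.0132). That call was lost without Ctr library 1 (adjusted p = 0.0617) or Ctr library 2 (0.0920). Ctsl, Ctsb, Ctsd, Lgmn and Ifi30 did not pass. Ctss, the protease that trims the invariant chain in antigen-presenting cells, had 0 counts in every Ctr and IFN-γ library and at most 3 in any library. The ubiquitin ligase genes March1 and March8, whose products shorten the life of class II at the surface, did not pass.

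With the inhibitor, none of these 22 genes was called in either comparison of EZH2i by edgeR, with or without the replicate block, or by DESeq2. Unadjusted, 1 of them had a p under 0.05 without IFN-γ and 0 with it, against 1338 and 1220 of all 18995 tested genes. In IFN-γ treated cells Irf1 was at 819, 1035 and 999 CPM without and 850, 1113 and 1016 CPM with EZH2i (0.06 ± 0.13, adjusted p = 0.999). The median log2 fold change of the 22 was 0.03 in this comparison, and that of the 9 tested members was 1.09, against -0.01 over all genes.

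**Figure D4:**
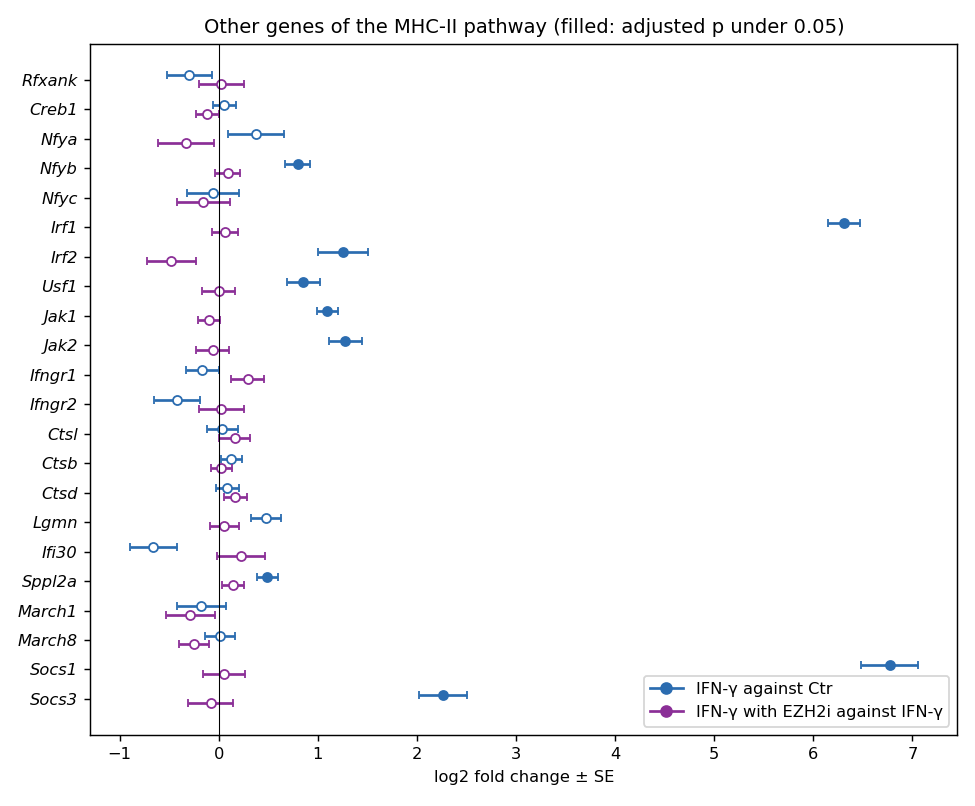
Fitted log2 fold changes ± SE of 22 other genes of the MHC-II pathway for IFN-γ against Ctr and for IFN-γ with EZH2i against IFN-γ; filled points have an adjusted p under 0.05. For IFN-γ 9 of them are filled, with Socs1 at 6.77 and Irf1 at 6.31, and none for EZH2i, where the values lie between -0.48 and 0.29.

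The genes whose centred log2 profile over the 12 libraries lay nearest to the mean profile of H2-Aa, H2-Ab1 and H2-Eb1 were ranked among 14681 genes with a mean of at least 1 CPM. They were Tnfaip2 (root mean square distance 0.319 on the log2 scale), Tgm2 (0.326), Gna14 (0.348), Tbx21 (0.383) and Parp3 (0.407). Tgm2 was at 4.53 ± 1.29 CPM in Ctr, 5.88 ± 1.46 with EZH2i, 115 ± 8.15 with IFN-γ and 178 ± 11.7 with both (SD, n = 3). Tbx21 was at 0.0293, 0.168, 13.5 and 20.5 CPM on average in the same order. For Ciita the nearest were H2-T23 (0.319), Ifit1 (0.357), Batf2 (0.363), Psmb8 (0.363) and Irf1 (0.371). Psmb8, an immunoproteasome subunit gene, had 163 ± 14.6 CPM in the IFN-γ libraries and 191 ± 30.3 CPM in the double-treated ones, where Ifit1 had 92.7 ± 21.6 and 89.9 ± 4.98 CPM. The class II chains and Ciita had no gene in common among their nearest 5.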

How the data were processed

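RNA from 12 cultures of primary OPCs was made into stranded total-RNA libraries. Per the labels and the study's methods, the authors quantified filtered reads with Salmon 0.8.2, and the deposited files hold estimated counts and TPM per transcript; STAR, DESeq2 and the builds mm10 and GRCm38 are also named in the submitters' processing notes. The deposited tables of the authors' own DESeq2 comparisons (fold changes and p-values) were not used. All 141862 transcripts matched GENCODE M21 and were summed to 55536 genes, with counts rounded to whole numbers. TPM keeps no depth, so tests ran on counts.

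Main test: edgeR 4.0.16 (R 4.3.3), TMM scaling, filterByExpr, quasi-likelihood F test in 1 fit of all 12 libraries with group as the only term, Benjamini-Hochberg adjustment over the 18995 genes kept, threshold 0.05. SE is the log2 fold change divided by the root of F. Alternatives were DESeq2 1.42.0, RLE scaling, no filter, a replicate block, only the samples of the groups compared, counts scaled from TPM, and leaving out each library. Fitting was tested on simulated data. Pooled count ratios carry exact binomial 95% intervals (scipy 1.17.1), transcripts were aligned with Biopython 1.88, and the floor is 3 counts per library. Libraries of a group differed by far more than counting noise (mean chi-square per gene 32.0 to 171), so none was counted as a repeat. Replicates came from different litters, per the labels.

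Same-numbered libraries deviated together, by correlation over the 18995 genes, in IFN-γ with EZH2i and EZH2i (0.530, 0.496 and 0.621) and in IFN-γ with EZH2i and IFN-γ (0.604, 0.493 and 0.642). They were not taken as paired for IFN-γ and Ctr (0.490, 0.0854 and 0.544) or EZH2i and Ctr (0.441, 0.0467 and 0.495).

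All 10 members are named, as are list genes called in a comparison, Rfxank, Irf1, H2-Oa, H2-Ob and Ctss, and the 5 genes nearest in profile (pseudocount 0.5 CPM); other genes are named to complete a list, and some list genes are not reported here. Members and lists were chosen with earlier results of these data known, and part of the MHC genes are ones the study itself picked from these samples.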

Additional observations from a re-analysis of the deposited data

How the results depend on the processing

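The 7 calls with IFN-γ held in every alternative for both IFN-γ comparisons, and 7 members were called whichever 1 of the 12 libraries was left out. The block added Rfx5 for IFN-γ against Ctr (log2 fold change 0.36, adjusted p = 0.0387), where same-numbered libraries were not taken as paired. Genes called in all moved with the block to 4032 for IFN-γ and 3661 for IFN-γ with EZH2i, with leave-one-out ranges of 1111 to 1710 and 1078 to 1566. For EZH2i against Ctr the count of 77 genes became 298 with DESeq2, 121 without the filter, 771 with the block, 33 with only the 2 groups' libraries, 12 with scaled TPM and 11 to 83 leaving out 1 library. Members called there stayed at 0 except 1 with the block (H2-Ab1, adjusted p = 0.0405). For IFN-γ with EZH2i against IFN-γ 67 genes became 259 with DESeq2, 748 with the block, 7 with only the 2 groups' libraries, 19 with scaled TPM and 10 to 65 leaving out 1 library; 0 members were called, but 2 with DESeq2 and 5 with the block. The interaction stayed at 0 genes and 0 members throughout.

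Directions turned only in members that did not pass. With the block these were H2-Eb1 for EZH2i against Ctr (-0.0483) and the interactions of Ciita (-0.0636) and H2-Aa (0.0186); with scaled TPM, Rfxap for EZH2i against Ctr (-0.00319) and the interactions of Ciita (-0.42), H2-Aa (0.54) and H2-Ab1 (-0.00200). Leaving out 1 library turned Rfxap (-0.0355 to 0.12 with IFN-γ, -0.00350 to 0.16 with EZH2i), H2-Eb1 (-0.22 to 0.41) and H2-DMa (-0.0502 to 0.17) with EZH2i, and the interactions of Ciita (-0.40 to 0.33), Rfx5 (-0.25 to 0.10), Cd74 (-0.37 to 1.20), H2-Aa (-0.79 to 0.46), H2-Ab1 (-0.29 to 0.67) and H2-DMb1 (-3.18 to 0.57). Among called members, the fold of H2-DMb1 depended most on 1 library: its log2 fold change with IFN-γ went from 7.73 to 9.62 without Ctr library 3, and in EZH2-inhibited cells from 6.45 to 8.28 without EZH2i library 3. Cd74 with IFN-γ went from 5.75 to 6.58 without Ctr library 1, 5.10 without IFN-γ library 1 and 5.02 without Ctr library 3, and H2-Aa from 7.62 to 8.32 without Ctr library 3. Of 160 group levels recomputed with RLE scaling or fewer libraries, all 160 stayed within 1 SD. For the levels with 1 library left out this was fixed in advance. Leaving out 1 of 3 libraries cannot move a mean by 1 SD, so only the RLE levels could have failed. Levels in TPM are a different unit and are given in the text. The cause of these shifts was not tested, beyond the few control counts on which the low genes rest.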

Other observations

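Within the IFN-γ groups the class II genes differed between the numbered libraries. In both IFN-γ groups library 3, the deepest of its group, had the lowest CPM of H2-Ab1, H2-Eb1 and H2-DMb1. Cd74 was at 5.09, 1.84 and 1.82 CPM in IFN-γ libraries 1 to 3, where library 1 stood apart, and at 10.4, 6.38 and 3.98 CPM with both agents. Ciita was also lowest in library 3 with IFN-γ, but the libraries lay close together (171, 171 and 166 CPM). With both agents its lowest library was number 1 (193, 234 and 216 CPM). Replicate numbers have no order, and these values are given without a test; the part of depth in them was not tested.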
